A study of Arabidopsis thaliana with 44 samples.

Results

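Transposable elements whose transcripts reached the sequencing libraries of wild-type Arabidopsis shoot apices are described here. An element was included where its mean over the 16 wild-type libraries was at least 0.5 CPM, the usual scaling of counts to equal library totals. Of 31189 annotated elements in the count table, 178 (0.571%) met this rule. The 7 identifiers set aside by the rule were all below the threshold, so that 0 elements were lost to it. The wild-type values themselves chose the elements, and their mean levels in wild type are therefore given as a description without a test. Just inside the threshold were AT5TE29590 at 0.519 and AT1TE00220 at 0.510 CPM, and just outside it were AT4TE10320 at 0.499 and AT5TE36470 at 0.490 CPM.

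RNA came from shoot apices of Col-0 seedlings on soil (day length 16 h, night 8 h), collected 7 days after germination. Total RNA was turned into libraries with Smart-seq3, which amplifies whole cDNAs. The 44 libraries comprised 8 of each wild type, labelled wt21 and wt col-0, and 4 of each mutant of the genes so named: ddm1, the single mutants ago4, ago5 and ago9, the double mutants ago4ago9 and ago5ago9, and the triple mutant ago4ago5ago9. All groups share the ecotype, the age, the medium and the light regime. The labels name no allele, leave the difference between both wild types unstated, and do not say whether replicates were separate plantings, so p-values measure the spread between these libraries, which may be technical. Mutants have replicates 1 to 4 only, and wild-type replicates 5 to 8 differed from 1 to 4 in many features, so each mutant was compared with the 8 wild-type libraries numbered 1 to 4 (4 of each wild type).

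Transposable elements are DNA sequences that can copy or move themselves within a genome, and plants keep most of them transcriptionally silent. DDM1 is a nucleosome remodeller that gives DNA methyltransferases access to heterochromatin. AGO4 and AGO9 carry small RNAs that guide RNA-directed DNA methylation, whereas AGO5 belongs to another ARGONAUTE clade. Elements that are nevertheless counted in wild type may be transcribed on their own or lie within or beside other transcription units, and a short-read count does not by itself separate these.

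Library totals ran from 4474810 to 10620119 counts, so a limit of 3 counts, the most that a count of 0 allows, stood for 0.282 to 0.670 CPM (counting error only). The ribosomal RNA gene AT3G41768 held 1.17% to 12.9% of counts and organelle genes held 2.29% to 15.5%. DDM1 RNA had 1 to 7 counts in each ddm1 library against 51 to 91 counts in wild-type replicates 1 to 4. AGO4 RNA was nearly absent in the libraries labelled ago4 and ago4ago9 (0 to 8 counts each). It was present in the libraries labelled ago4ago5ago9 (77 to 264 counts). In the libraries labelled ago9 it was at 0 or 1 count in replicates 1 and 2 but at 97 and 109 counts in replicates 3 and 4. AGO4 RNA thus did not follow what either label names. The labels give no allele, so whether labels or alleles lie behind this cannot be told. AGO5 was too low for its loss to be seen (30 counts over the 16 wild-type libraries). Of the apex markers, STM had a wild-type median of 5.28 CPM and KNAT1 of 9.74 CPM, WUS was at 0 in 39 of 44 libraries and CLV3 in 20. The leaf gene RBCS1A reached 39166 to 51113 CPM in wild type, the root hair genes RHD6 and EXPA7 were at 0 in all 44 libraries, and the floral organ genes AP3 and AG were at 0 in 43 and 37. In such bulk samples fewer cells of a type and less RNA per cell cannot be told apart.

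Transcripts of elements in wild type came from few loci. Of the 31189 elements, 29420 had no count in any wild-type library, and the 178 elements held 95.1% of the wild-type CPM of all elements. Their means ran from 0.510 to 217 CPM with a median of 2.0 CPM. There were 27 elements at 10 CPM or more, 106 from 1 to under 10 CPM and 45 below 1 CPM, where a library's value rests on few counts. The highest element held 16.4% of the summed CPM of the 178, the highest pair 29.2% and the highest 10 together 54.2%. They were spread over the genome: chromosomes 1 to 5 carried 42, 32, 43, 27 and 34 of them, or 0.509% to 0.666% of the annotated elements of each chromosome. A count was present in all 16 wild-type libraries for 152 elements and in all 44 libraries for 124.

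**Figure D1:**
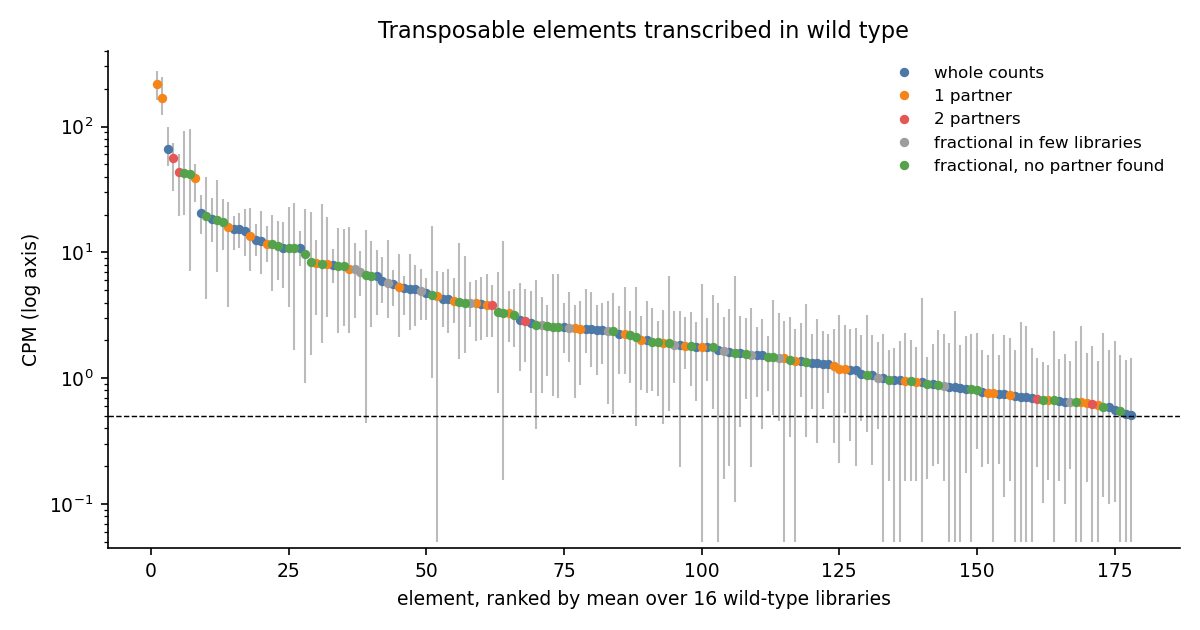
Mean CPM over the 16 wild-type libraries of each of the 178 elements (points, log axis) in order of that mean, with the lowest and highest library (grey lines, which run to the foot of the axis where a library had 0). Colours give how the counts of the element are shared with other features, and the dashed line is the threshold of 0.5 CPM; the highest pair stood at 217 and 169 CPM, far above the median of 2.0 CPM.

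The 10 highest elements were compared by counts, since lengths were not used here and CPM is not scaled to length. AT2TE16945 ranged from 162 through a median of 209 to 276 CPM over the 16 wild-type libraries. AT5TE72200 ranged from 124 through 176 to 249 CPM. These ranges overlapped each other, and both lay above the highest wild-type library of every other element. AT2TE12510 ranged from 48.5 through 65.6 to 98.7 CPM, and AT5TE11315 from 30.7 through 61.4 to 74.1 CPM. AT3TE32730 (19.6, 44.8 and 60.7 CPM as lowest, median and highest) and AT1TE02770 (25.1, 37.9 and 50.8 CPM) overlapped them. AT5TE89930 and AT2TE51495 spread further, from 19.9 through 38.0 to 92.5 CPM and from 7.17 through 33.3 to 96.3 CPM. AT1TE98440 was the steadiest of the 10 at 14.0, 20.8 and 28.5 CPM (coefficient of variation 15.7%), and AT5TE79650 ran from 4.28 through 17.5 to 39.5 CPM (50.8%).

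Elements differed widely in how steady they were. The median coefficient of variation over the 16 wild-type libraries was 47.4% for all 178 elements and 33.1% for the 89 elements at 2 CPM or more. AT2TE23870 (10.8 ± 1.65 CPM, SD, n = 16) was the steadiest of these 89, with a coefficient of variation of 15.3%. In contrast, 11 of the 89 varied over 10-fold between their lowest and highest wild-type library. AT2TE18115 went from 0 to 7.07 CPM, AT3TE63505 from 0.156 to 12.3 CPM (79.0-fold) and AT3TE79330 from 0.441 to 15.1 CPM (34.3-fold). AT1TE75275 went from 0.912 to 21.9 CPM and AT2TE43095 from 0.997 to 16.2 CPM (16.2-fold). For these elements a mean over libraries describes few of them.

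The counts themselves show that many of these elements shared reads with other features. The deposited values are estimated counts, and a value that is not whole can arise when a read is divided between features. Among the non-zero values of the 178 elements 38.8% were not whole, against 6.26% over the whole table. All counts were whole in every library for 69 elements, and 15 had fractional values in too few libraries (under 3) to examine. For 36 elements the fraction was completed to a whole number by the fraction of 1 other feature, within 0.0025 of a count, in at least 80% of the libraries with a fraction (in every such library for 29 of the 36). That feature was a gene for 29 elements and another element for 7, and it lay on the same chromosome in all 36 cases. A pair of features completed the fraction for 6 elements, and no such set was found for 52.

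Several of the highest elements belong to the shared kind. AT2TE16945 divided reads with its neighbour in the numbering, AT2TE16940 (2.23 CPM in wild type), in 44 of 44 libraries. AT5TE72200 did so with the protein-coding gene AT5G49440 (5.48 CPM) in 44 of 44, and AT1TE02770 with the gene 2A6 (AT1G03410, 1.55 CPM) in 44 of 44. In these 3 cases the element had the larger count of the pair. In others the gene dominated: AT3TE32730 (43.8 CPM) shared with CWLP (AT3G22120, 539 CPM), which encodes a cell wall and plasma membrane linker protein homologue, and with the long noncoding RNA AT3G22121 (114 CPM). AT2TE18115 (4.50 CPM) shared with AT2G10940 at 1130 CPM, AT2TE61100 (2.49 CPM) with the glycine-rich protein gene GRP23 at 561 CPM, and AT4TE35370 (0.643 CPM) with the RNA-binding protein gene GR-RBP2 at 486 CPM. AT1TE04835 (15.8 CPM) shared with the transcribed pseudogene AT1G05135 at 87.5 CPM. For AT5TE11315 (56.5 CPM) the summed fractions of the chloroplast features ATCG00970 and ATCG01160 (0.0995 and 2.39 CPM) completed the count in 26 of its 26 fractional libraries. The search for pairs did not require a fraction of each feature in every library. ATCG00970 was near 0, so sharing with both in each library is not shown. AT2TE12510 and AT1TE98440 had whole counts in all 44 libraries. For the elements that share reads with a gene, the level of the element depends on how those reads were divided, which is not given in the sources used here.

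The gene most like each of the 10 highest elements was found by Pearson's r of log2(CPM + 0.5) over the 44 libraries, which share their scaling and depth, and r is given as a description. AT2TE16945 was most like AT4G02930, annotated as an elongation factor Tu family protein (r = 0.91). AT5TE72200 was most like RUP2 (r = 0.84), a repressor of UV-B signalling, and AT2TE12510 most like AT3G05060 (r = 0.83), annotated as a NOP56-like ribonucleoprotein of pre-RNA processing. AT1TE02770 was most like PAB8 (r = 0.88), a poly(A)-binding protein, and AT1TE98440 most like AT1G53800 (r = 0.85). AT5TE11315 was most like the small nuclear RNA U6-1 (r = 0.81), AT3TE32730 most like TAS1C (r = 0.67), a precursor of trans-acting small RNAs, and AT5TE89930 most like the noncoding RNA AT1G15405 (r = 0.77). The pseudogene AT2G07688 was the most alike gene for AT2TE51495 (r = 0.86) and AT5TE79650 (r = 0.88), and for 6 of the 178 elements in all. Over all 178 elements the median of the highest r was 0.67, and the most alike gene lay on the same chromosome for 30 of them.

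**Figure D2:**
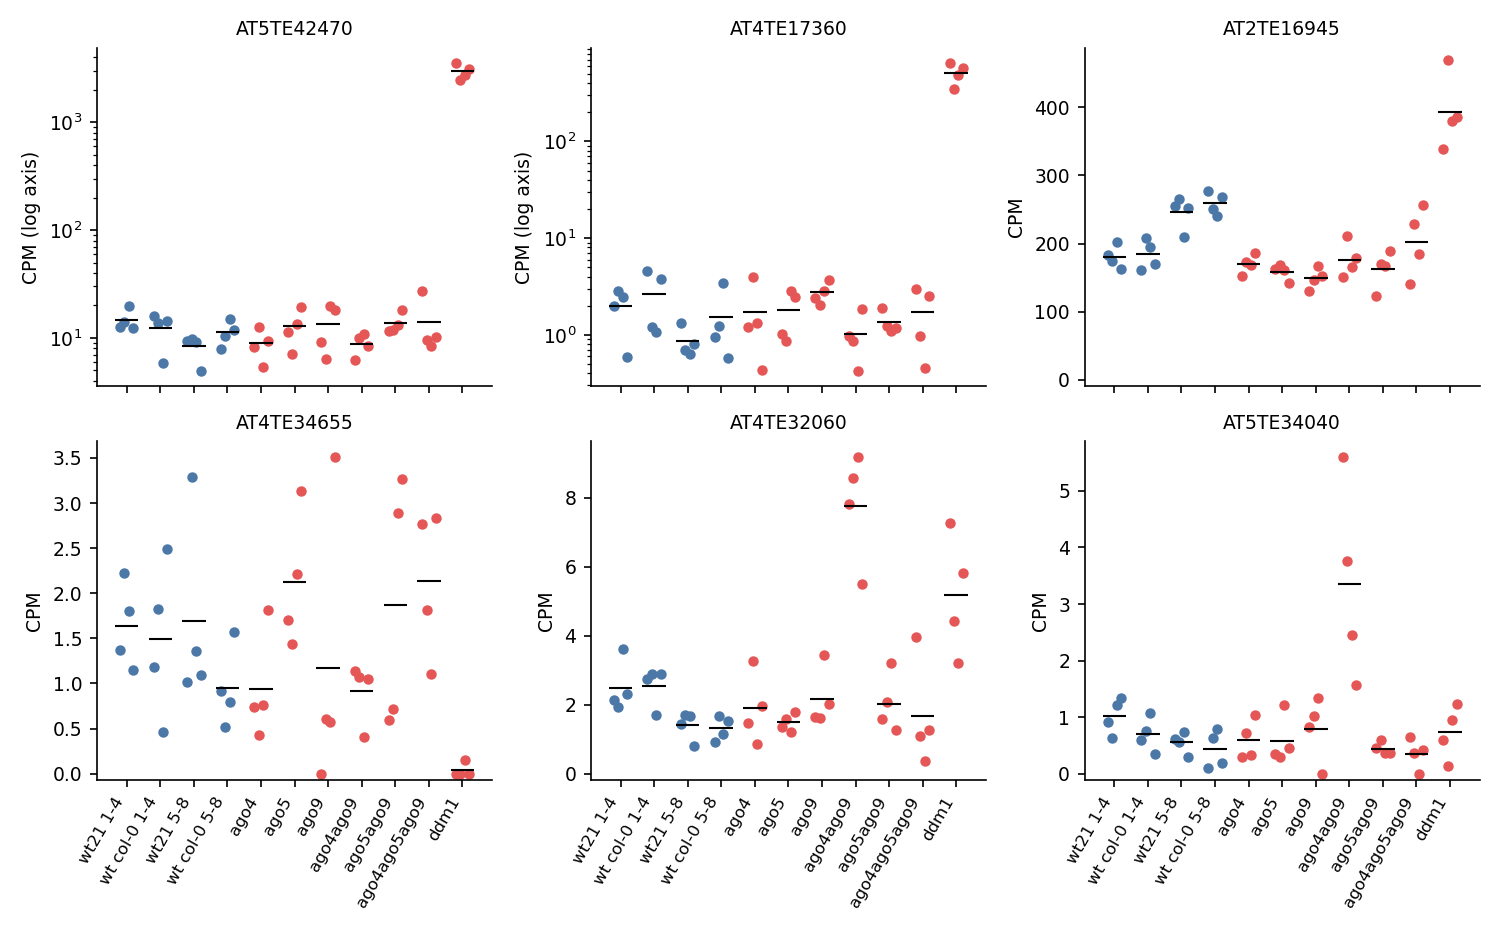
CPM of 6 elements in each of the 44 libraries (points) with group means (bars), wild-type libraries in blue and split by replicate number, mutants in red; the first pair of panels has log axes. AT5TE42470 and AT4TE17360 stand apart in the 4 ddm1 libraries, AT2TE16945 is raised there too, AT4TE34655 is near 0 there, and AT4TE32060 and AT5TE34040 are highest in ago4ago9.

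Loss of DDM1 was the mutation with the most calls. In ddm1 against wild-type replicates 1 to 4, 31 of the 178 elements passed an adjusted p of 0.05 (17.4%; edgeR quasi-likelihood test, Benjamini-Hochberg over all 20006 features tested), where 21.8% of all features did. Of these, 17 were higher (13.9% of all features were) and 14 were lower (7.87% of all features). Among genes alone, with all elements left out, 18.0% were called, so the share of elements called was near that of genes. The median log2 fold change was -0.08 over the elements and 0.05 over all features. With plain library totals in place of TMM scaling the medians were 0.08 and 0.20, and 0 called elements changed sign. For 138 of the 178 elements the estimate was under 2-fold in either direction. Of the 31 called, 13 were also called, in either direction, between wild-type replicates 5 to 8 and 1 to 4, where 43 of the 178 were. Both comparisons use wild-type replicates 1 to 4, and the share of all features called in both is not given here. The libraries of wild-type replicates 1 to 4 took part in choosing the elements. When elements were chosen on replicates 5 to 8 alone (178 elements, 171 of them shared; an alternative added after seeing the data), 31 were again called, 17 higher and 14 lower.

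Large rises in ddm1 were few. AT5TE42470 was at 5.88 to 19.7 CPM with a median of 13.9 CPM in wild-type replicates 1 to 4 and at 3516, 2451, 2736 and 3087 CPM in the 4 ddm1 libraries, which the fit put at 7.60 ± 0.27 on the log2 scale (SE; edgeR adjusted p = 2.34e-25). AT4TE17360 was at 0.586 to 4.61 CPM (median 2.24) in wild type and at 647, 347, 492 and 572 CPM in ddm1 (7.67 ± 0.29; edgeR adjusted p = 1.89e-24). All ddm1 libraries lay far above all wild-type and ago libraries for both, as the plot by library shows. The counts of AT5TE42470 were fractional in 44 of 44 libraries and those of AT4TE17360 in 37, with no partner found, so part of them was divided with features that were not identified. AT1TE71775 was at 0.304 to 2.21 CPM (median 0.933) in wild type and at 45.8, 56.0, 52.8 and 35.1 CPM in ddm1, a log2 difference of 5.35 ± 0.33 (edgeR adjusted p = 3.57e-17), and its counts were whole in every library. AT5TE46165 was at 0.383 to 1.67 CPM (median 0.459) in wild type and at 7.25, 18.7, 8.44 and 4.61 CPM in ddm1 (3.67 ± 0.40; edgeR adjusted p = 5.94e-10). These 4 elements did not overlap between the groups. Of the 17 elements called higher, 9 were over 4-fold higher by the fit. The share of all features called and over 4-fold higher is not given here.

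The highest element of wild type also rose. AT2TE16945 was at 162 to 208 CPM (median 179) in wild-type replicates 1 to 4 and at 338, 470, 379 and 385 CPM in ddm1, a log2 difference of 0.91 ± 0.10 (edgeR adjusted p = 1.30e-09). Every ddm1 library was above the 276 CPM reached by the highest wild-type library of either replicate set. AT2TE16940, with which it shares reads, moved by a like amount, from 2.06 ± 0.679 to 4.39 ± 1.18 CPM (0.89 ± 0.32; edgeR adjusted p = 0.0402). The next element in the order, AT5TE72200, went the other way by little: 124 to 176 CPM (median 141) in wild type and 122, 114, 149 and 126 CPM in ddm1, with overlapping groups and a log2 difference of -0.37 ± 0.11 (edgeR adjusted p = 0.0105, and 0.0663 without ddm1 replicate 2). AT5G49440, which shares its reads, was at 3.69 ± 1.22 CPM in wild type and 6.18 ± 1.40 CPM in ddm1 (log2 fold change 0.55 ± 0.21, edgeR adjusted p = 0.0571).

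Among elements lower in ddm1, AT4TE34655 was nearly lost. It was at 0.462 to 2.49 CPM (median 1.59) in wild-type replicates 1 to 4 and at 0, 0, 0.153 and 0 CPM in ddm1, which is 1 count in all against 73 in wild type. The ratio of these counts per library total was 53.0-fold lower, with a 95% counting interval of 9.21 to 2120 (edgeR adjusted p = 1.46e-05). AT3TE30965 was at 0.196 to 1.42 CPM (median 0.768) in wild type and at 0.151, 0, 0.460 and 0 CPM in ddm1, 4 counts in all, with overlapping groups (log2 fold change -2.68 ± 0.75, edgeR adjusted p = 0.00697). AT1TE57805, an element with whole counts, was at 10.4 to 15.5 CPM (median 12.3) in wild type and at 6.35, 5.08, 9.21 and 9.51 CPM in ddm1, without overlap (-0.91 ± 0.18; edgeR adjusted p = 1.31e-04). AT4TE33435 was at 0.767 to 4.12 CPM (median 2.17) in wild type and at 0.453, 1.07, 0.460 and 1.51 CPM in ddm1 (-1.43 ± 0.42; edgeR adjusted p = 0.0105). Its groups overlapped, and against wild-type replicates 5 to 8 it was not called (edgeR adjusted p = 0.155). By the fit, 3 elements were over 4-fold lower.

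A comparison that used no wild-type library was ddm1 against the mean of the 6 ago groups. There 38 of the 178 elements were called (21.3%; edgeR, 24.2% of all features), 26 higher (15.3% of all features) and 12 lower (8.99%), with a median log2 fold change of 0.00 over the elements and 0.06 over all features. Both ddm1 comparisons use the same 4 ddm1 libraries, and 23 elements were called in both with the same direction, 16 higher and 7 lower. The share of all features called in both is not given here, so this count is not a result about the elements. AT5TE42470 was at 5.41 to 27.4 CPM (median 10.5) in the 24 ago libraries, a log2 fold change of 7.77 ± 0.17 for ddm1 (edgeR adjusted p = 1.58e-33). AT4TE17360 was at 0.422 to 3.99 CPM (median 1.28) in them (8.09 ± 0.19; edgeR adjusted p = 1.64e-32), and AT1TE71775 at 0 to 1.49 CPM (median 0.487; 6.07 ± 0.24, edgeR adjusted p = 2.02e-24). AT5TE46165 (0 to 1.64 CPM, median 0.604) and AT2TE16945 (123 to 257 CPM, median 167) were higher in ddm1 by 3.71 ± 0.29 and 0.97 ± 0.09 on the log2 scale, with edgeR adjusted p of 3.45e-14 and 8.96e-13.

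Elements lower in ddm1 than in the ago groups included several of those just described. AT4TE34655 (0 to 3.51 CPM, median 1.13, in the ago libraries) and AT3TE30965 (0 to 1.69 CPM, median 0.817) were lower by the fit with edgeR adjusted p of 5.89e-06 and 0.00304. AT1TE57805 (8.22 to 14.3 CPM, median 11.4) was lower by -0.78 ± 0.16 on the log2 scale (edgeR adjusted p = 2.04e-04). AT2TE26845 was at 0.712 to 3.33 CPM (median 1.91) in the ago libraries and at 0.302, 1.56, 0.921 and 0.840 CPM in ddm1 (-1.24 ± 0.31; edgeR adjusted p = 0.00202). AT2TE18115 was at 1.64 to 30.8 CPM (median 8.22) in the ago libraries and at 2.91 ± 1.10 CPM in ddm1 (-1.96 ± 0.50; edgeR adjusted p = 0.00229). Against wild-type replicates 1 to 4 (2.80 to 5.91 CPM, median 4.12) it was not called in ddm1 (log2 fold change -0.68). The gene that shares the reads of AT2TE18115, AT2G10940, was itself lower in ddm1 than in wild-type replicates 1 to 4 (-0.95 ± 0.13; edgeR adjusted p = 1.25e-07), and its part in the change of the element was not tested.

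**Figure D3:**
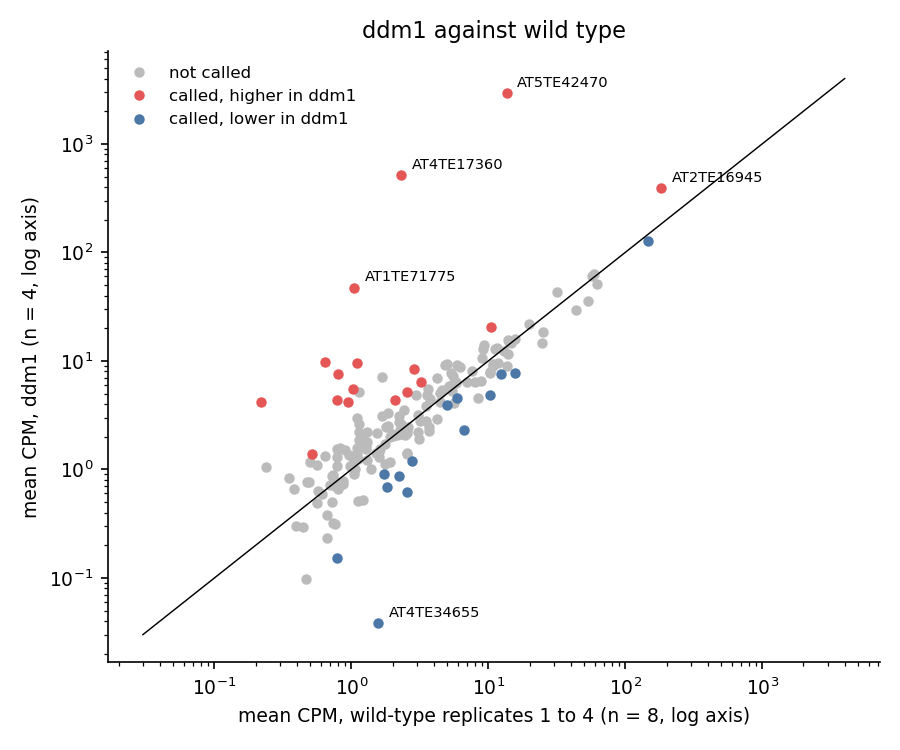
Mean CPM of each of the 178 elements in the 4 ddm1 libraries against that in the 8 wild-type libraries numbered 1 to 4 (both axes log), with elements called by edgeR in red (17 higher) and blue (14 lower) and the line of equal values. Most elements lie along the line, and AT5TE42470, AT4TE17360 and AT1TE71775 lie far above it.

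A pair of elements with fractional counts and no partner found, AT5TE42470 and AT4TE17360, held most of the summed counts in ddm1. The 178 elements held 0.130 ± 0.0145% of counts in wild-type replicates 1 to 4 (SD, n = 8) and 0.502 ± 0.0552% in ddm1 (n = 4), and all ddm1 libraries (0.435% to 0.570%) were above all wild-type ones (0.114% to 0.147%). The two-sided exact permutation test of group means gave p = 0.00202, the smallest it can give, and 0.0141 after adjustment over the 7 mutants. AT5TE42470 and AT4TE17360 made up 68.7% of the ddm1 sum and 1.21% of the wild-type sum. Without them (an alternative chosen after seeing the data) the share was 0.155 ± 0.0121% in ddm1 and 0.128 ± 0.0142% in wild type (exact permutation adjusted p = 0.0495). The 178 elements held 94.2% to 95.5% of all element counts in wild-type replicates 1 to 4 but 9.32% to 10.9% in ddm1. They were chosen on wild-type libraries, these 8 among them, so the high share in wild type is partly set by the rule. All annotated elements together took 0.137% of counts in wild-type replicates 1 to 4 and 4.98% in ddm1.

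Few elements were called in the ago mutants. Against wild-type replicates 1 to 4, edgeR called 1 element in ago4, which was lower (0.365% of all features were called, 0.295% higher and 0.07% lower). It called 2 elements in ago4ago9, both higher (0.315% of all features, 0.28% higher and 0.035% lower), and 1 element in ago4ago5ago9, which was higher (0.085%, of which 0.06% higher and 0.025% lower). It called 0 elements in ago5 (0.015% of all features, 0.005% higher and 0.01% lower), 0 in ago9 (0.03%, all higher) and 0 in ago5ago9 (0.48%, 0.395% higher and 0.085% lower). An unadjusted edgeR p under 0.05 was held by 16, 19 and 17 elements in ago5, ago9 and ago5ago9. Over all 20006 features it was held by 1363, 2126 and 2222, so these counts are not a result about the elements. DESeq2 called 0 elements in each. The median log2 fold changes of the 178 elements ran from -0.18 (ago4 and ago5ago9) to -0.02 (ago5), beside 0.00 over all features in each. These comparisons share the 8 wild-type libraries, which also helped to choose the elements, so the common sign is not a result. The 0 calls in ago9 remained 0 without its replicates 1 and 2, which lack AGO4 RNA.

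Both calls in ago4ago9 were higher and did not overlap wild type. AT4TE32060 was at 1.69 to 3.61 CPM (median 2.52) in wild-type replicates 1 to 4 and at 7.81, 8.57, 9.19 and 5.50 CPM in ago4ago9, a log2 difference of 1.70 ± 0.29 (edgeR adjusted p = 5.25e-04), and it was called under each of 21 alternatives. It was itself lower in wild-type replicates 5 to 8 than in 1 to 4 (-1.10 ± 0.29; edgeR adjusted p = 0.00555). Its group means were 1.90 ± 1.02 CPM in ago4 and 2.18 ± 0.852 CPM in ago9 (n = 4 each), and it was also called higher in ddm1, at 5.17 ± 1.75 CPM (0.87 ± 0.30; edgeR adjusted p = 0.0314). AT5TE34040 was at 0.356 to 1.34 CPM (median 0.837) in wild type and at 5.60, 3.76, 2.46 and 1.57 CPM in ago4ago9 (2.03 ± 0.46; edgeR adjusted p = 0.0270). It had 0.593 ± 0.350 CPM in ago4, 0.794 ± 0.569 CPM in ago9 and 0.732 ± 0.468 CPM in ddm1. Whether the change in ago4ago9 differs from that in the single mutants was not tested. The call of AT5TE34040 rests on single libraries: it was lost without ago4ago9 replicate 1 or 2, without wt21 replicate 1 or 2, without wt col-0 replicate 1, 2 or 4, and with wt col-0 as the only control (edgeR adjusted p up to 0.118).

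The single calls in ago4 and ago4ago5ago9 were close to the threshold. AT3TE71210 was at 0.672 to 5.61 CPM (median 2.08) in wild-type replicates 1 to 4 and at 0 in all 4 ago4 libraries, at least 26.3-fold lower against a floor of 3 counts over the group (edgeR adjusted p = 0.0492). It was also at 0 in 3 of 4 ago4ago9 libraries and in 3 of 8 wild-type libraries numbered 5 to 8, it shares reads with AT3G47680, and the call was lost under 15 of 20 alternatives (edgeR adjusted p from 0.00263 to 0.209), among them leaving out any 1 library other than wt col-0 replicate 3. AT3TE06550 was at 3.07 to 14.1 CPM (median 5.58) in wild type and at 6.40, 29.8, 10.7 and 29.3 CPM in ago4ago5ago9 (1.61 ± 0.35; edgeR adjusted p = 0.0493). Its groups overlapped, wild-type replicates 5 to 8 reached 19.2 CPM, and the call was lost under 10 of 21 alternatives (edgeR adjusted p from 0.00911 to 0.329). Among the lost ones were the fits without ago4ago5ago9 replicate 2 or 4 or without any 1 of 7 wild-type libraries.

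As a share of all counts the 178 elements were at 0.103 ± 0.0124% in ago4 (n = 4), below the 0.130 ± 0.0145% of wild-type replicates 1 to 4 (exact permutation p = 0.0141, adjusted p = 0.0495 over 7 mutants). Those wild-type libraries helped to choose the elements, which favours a lower share in a mutant, so this p is not independent of the choice. The adjusted p was 0.0566 with elements chosen on replicates 5 to 8. It was 0.00361 with all 16 wild-type libraries, which are those that chose the elements, as control. It was above 0.05 without ago4 replicate 1, 3 or 4, wt21 replicate 3 or 4, or wt col-0 replicate 1, 2 or 4. With wt col-0 alone as control (4 against 4 libraries, 70 divisions) it was 0.2 (exact permutation p = 0.0571). There ddm1, at the smallest p the test can give (0.0286), also had 0.2, so this control has too few divisions to decide. The other ago groups lay between 0.112% and 0.125%, with exact permutation adjusted p of 0.217 to 0.560, though for ago5ago9 it was 0.0424 without its replicate 3. In ago4ago9 the elements held 84.6 ± 1.21% of element counts, against 92.5% to 94.5% in the other ago groups. AT2TE16945 had means from 149 CPM in ago9 to 203 CPM in ago4ago5ago9, and AT5TE11315 from 28.6 CPM in ago4ago5ago9 to 72.3 CPM in ago9. The kinds of element differed in ago4. The median log2 fold change was -0.61 for the 52 fractional elements with no partner found (46 below 0). It was -0.06 for the 69 with whole counts and 0.07 for the 36 with 1 partner. The 52 also had medians of -0.44 in ago4ago9, -0.33 in ago4ago5ago9, -0.28 in ago5ago9 and -0.42 in ddm1. In ago5 and ago9 they were -0.11 and 0.06. A low median of this kind was thus not particular to ago4, and all these comparisons share the 8 wild-type libraries numbered 1 to 4. AT3G41768 held 2.61% to 7.71% of counts in ago4 and 6.56% to 12.6% in wild-type replicates 1 to 4, and its part in the ago4 share was not tested.

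**Figure D4:**
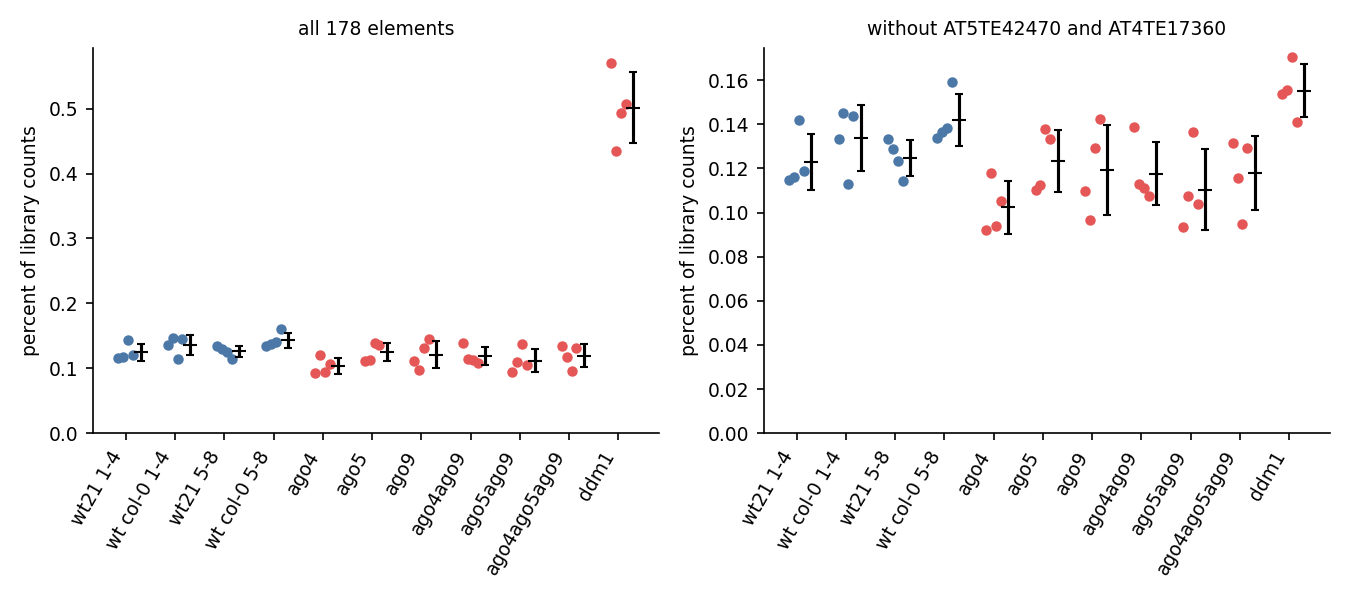
Percent of library counts held by the 178 elements (left) and by the 176 without AT5TE42470 and AT4TE17360 (right), per library (points) with group mean ± SD (bars), wild types split by replicate number. In ddm1 the 4 libraries reach 0.435% to 0.570% on the left, and the gap to wild type shrinks to 0.155% against 0.128% on the right.

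The wild-type libraries themselves differed by replicate set. Of the 178 elements, 43 were called between wild-type replicates 5 to 8 and 1 to 4 (24.2%; edgeR, 16.1% of all features), 7 higher (8.21% of all features) and 36 lower (7.9%) in replicates 5 to 8. The same 16 libraries chose the elements by their mean over both sets, so these calls and p-values describe the libraries and are not independent of the choice. The labels give no batch for these sets, whose libraries also differed in depth (7529639 to 10168457 against 4985459 to 6577655 counts), in organelle share (2.80% to 6.94% against 7.70% to 14.4%) and in the share of AT3G41768 (1.88% to 7.29% against 6.56% to 12.6%). Their part in the calls was not tested. Within wt21 alone 11 elements were called (0 higher) and within wt col-0 alone 7 (2 higher), where the share of all features called is not given here. The test of whether the change differed between the wild types called 0 elements (edgeR; 12 with an unadjusted p under 0.05). The count fell to 28 without wt21 replicate 8. Between wt21 and wt col-0 over all replicates, 0 elements were called by edgeR (0.18% of all features) and 0 by DESeq2. There an unadjusted edgeR p under 0.05 was held by 9 of the 178 elements and by 1679 of the 20006 features tested. With plain library totals in place of TMM scaling, the median log2 difference of all features between the replicate sets was 0.18, and that of the 178 elements was -0.01, or below the features in general by about as much as with TMM (-0.20 against 0.00). No called element changed its sign.

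Most elements that were lower in replicates 5 to 8 came from 1 kind. Of the 36, 27 were among the 52 elements whose counts were fractional and for which no partner was found, and this kind had a median log2 fold change of -1.09 with 44 of 52 below 0. The 69 elements with whole counts had a median of -0.08 and 8 calls, 3 higher and 5 lower, and the 36 with 1 partner had a median of 0.13 and 3 calls, all higher. AT5TE44605 was at 6.26 to 15.4 CPM (median 10.6) in replicates 1 to 4 and at 2.59 to 8.17 CPM (median 4.88) in replicates 5 to 8 (-1.24 ± 0.23; edgeR adjusted p = 1.51e-04), and this call held under every alternative. AT2TE04520 (median 2.98 against 1.20 CPM), AT5TE72360 (15.9 against 5.31 CPM) and AT4TE10895 (2.96 against 1.03 CPM) were lower by -1.58 ± 0.33, -1.64 ± 0.35 and -1.73 ± 0.37 on the log2 scale, with edgeR adjusted p of 5.24e-04, 8.69e-04 and 8.77e-04. AT4TE18385, whose counts were fractional in few libraries, was lower by -0.80 ± 0.15 (median 5.70 against 3.83 CPM; edgeR adjusted p = 2.08e-04). The calls of AT2TE04520 and AT4TE18385 were lost within wt21 (edgeR adjusted p of 0.0866 and 0.225) and those of AT5TE72360 and AT4TE10895 within wt col-0 (0.0735 and 0.307). The ranges of the 2 sets overlapped for all 5. Of the highest elements, AT2TE51495 was at 20.9 to 96.3 CPM (median 65.3) against 7.17 to 34.8 CPM (median 22.1), also with overlap (-1.77 ± 0.47; edgeR adjusted p = 0.00753).

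Of the elements higher in replicates 5 to 8, AT1TE35020, with whole counts, was at 12.0 to 17.4 CPM (median 14.1) in replicates 1 to 4 and at 18.8 to 26.9 CPM (median 21.9) in replicates 5 to 8, without overlap (0.42 ± 0.12; edgeR adjusted p = 0.0127). AT1TE02770 was at 25.1 to 35.8 CPM (median 32.0) against 39.9 to 50.8 CPM (median 45.3), also without overlap (0.30 ± 0.10; edgeR adjusted p = 0.0279). AT3TE71740 (median 0.571 against 1.66 CPM; 1.29 ± 0.36), AT2TE26845 (1.94 against 3.74 CPM; 0.79 ± 0.25) and AT2TE07145 (0 against 1.35 CPM; 2.44 ± 0.69) had edgeR adjusted p of 0.0106, 0.0243 and 0.0114 with overlapping ranges. AT2TE07145 had no count in 5 of the 8 libraries numbered 1 to 4 and in 18 of the 24 ago libraries, and it was at 1.96, 4.30, 7.83 and 2.54 CPM in ddm1. None of these 5 calls held within either wild type alone.

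**Figure D5:**
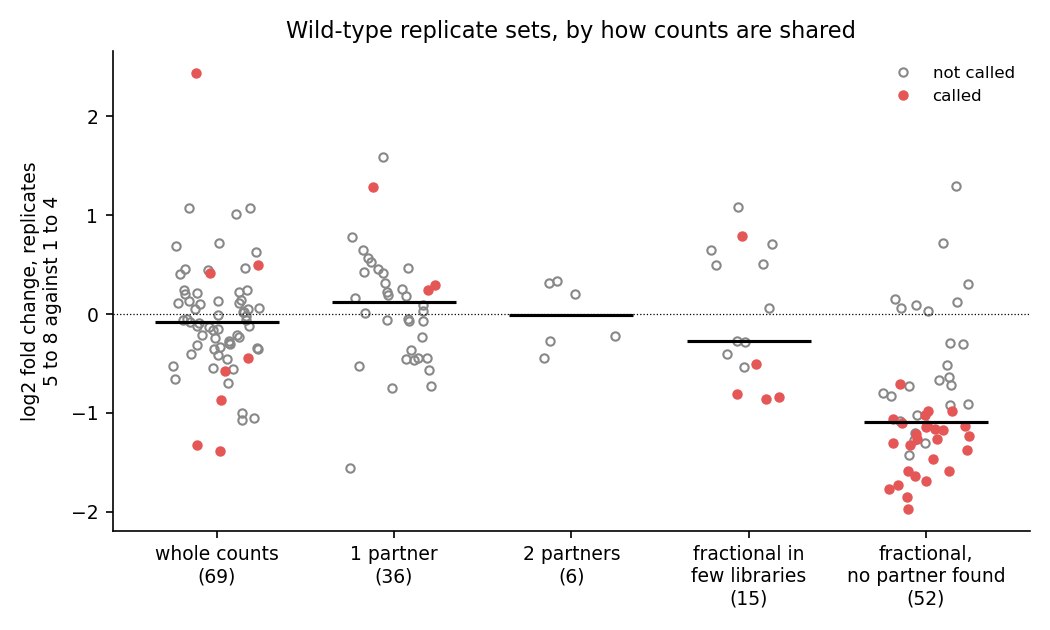
Log2 fold change of each element between wild-type replicates 5 to 8 and 1 to 4 (vertical axis), in columns by how its counts are shared with other features (number of elements in brackets), with called elements in red and the median of each kind as a bar. The median is -1.09 for fractional elements with no partner found and within 0.28 of 0 for the other kinds.

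The 52 elements with fractional counts and no partner found summed to 390 ± 105 CPM in replicates 1 to 4 (SD, n = 8; 199 to 511 CPM) and to 223 ± 56.0 CPM in replicates 5 to 8 (139 to 325 CPM), with overlap. The 69 elements with whole counts summed to 294 ± 23.5 CPM (259 to 325 CPM) and to 344 ± 34.9 CPM (305 to 420 CPM), also with overlap. Pearson's r of the sum of the 52 with the share of AT3G41768 was 0.87 in replicates 1 to 4 (n = 8). It was 0.68 in replicates 5 to 8 (exact permutation adjusted p of 0.0452 and 0.222 over 8 relations). For the sum of the 69 it was 0.35 and 0.20 (adjusted p of 0.645 and 0.664). With the organelle share r ran from -0.23 to 0.47 (adjusted p of 0.643 or more). These values share the library total, and their part in the calls was not tested.

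The genes of the silencing machinery were examined beside the elements with a list of 22 (21 tested, AGO5 being too low). In ddm1 against wild-type replicates 1 to 4, 3 rose and 5 fell by edgeR, and the median log2 fold change of the list was 0.27. The 5 were DDM1 (-4.71 ± 0.27, adjusted p = 1.84e-18), the DNA demethylase ROS1 (-2.09 ± 0.36, adjusted p = 1.54e-05), the methyltransferase CMT2 (-0.84 ± 0.19, adjusted p = 6.22e-04), the polymerase V subunit NRPE1 (-0.69 ± 0.18, adjusted p = 0.00483) and the silencing factor MOM1 (-0.60 ± 0.21, adjusted p = 0.0326). The 3 were the histone deacetylase HDA6 (0.52 ± 0.15, adjusted p = 0.00711), AGO1 (0.50 ± 0.15, adjusted p = 0.00998) and the maintenance methyltransferase MET1 (0.30 ± 0.11, adjusted p = 0.0471). Against the mean of the ago groups 6 rose and 2 fell (list median 0.29), with AGO4 and AGO9, which are mutated in some of those groups, among the 6.

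In the ago mutants few genes of the list were called. ROS1, a gene known as a target of RNA-directed DNA methylation, fell in ago4 from 13.5 ± 2.99 to 0.199 ± 0.178 CPM (-5.88 ± 0.60; edgeR adjusted p = 1.49e-08) and in ago4ago9 to 2.24 ± 0.906 CPM (-2.53 ± 0.40; edgeR adjusted p = 9.19e-05). AGO4 fell in both (edgeR adjusted p of 2.45e-08 and 8.38e-09), and AGO9 was at 0 in all libraries of ago4ago9 and ago5ago9. The list had 2 calls in ago4, 3 in ago4ago9 and 1 in ago5ago9, all lower, and 0 in ago5, ago9 and ago4ago5ago9 (edgeR), with medians from -0.27 to -0.02 beside 0.00 over all features. Between the wild-type replicate sets 0 rose and 3 fell: RDR2 (-0.62 ± 0.18, edgeR adjusted p = 0.0165), MOM1 (-0.58 ± 0.17, adjusted p = 0.0121) and NRPE1 (-0.42 ± 0.15, adjusted p = 0.0398).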

How the data were processed

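The authors deposited 1 table of estimated counts per feature, with 1 column per library; TAIR10 and DESeq2 are named in the submitters' processing notes, without a role. The aligner, the counting program, the use of strand, and whether reads or molecular identifiers were counted are not given in the sources used here. The table holds 29696 genes, 31189 elements and 2 reporter sequences, which were dropped (4.87e-05% of counts). Estimated counts were rounded for testing. CPM uses library totals. Symbols and products came from RefSeq TAIR10.1 (28929 genes matched), and no coordinate or sequence of an element was used.

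Features with a mean of at least 0.18 CPM over all 44 libraries (20006, with all 178 elements) entered 1 edgeR 4.0.16 quasi-likelihood model in R 4.3.3 (limma 3.58.1) with TMM factors of 0.852 to 1.33, 1 mean per mutant and 1 per wild type and replicate set, common biological coefficient of variation 0.191. DESeq2 1.42.0 was an alternative. The model was checked on simulated data. SE came from the fold change and F statistic. Summaries used Python 3.11.15, scipy 1.17.1, numpy 2.4.6, pandas 2.3.3 and, for figures, matplotlib 3.10.9. Shared reads were sought by fractions that sum to a whole count within 0.0025 (0.0035 for a pair of partners).

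Elements, lists and comparisons were chosen with earlier results of these data known. Elements named are the 10 highest, those nearest the threshold, up to 5 called in each direction per comparison by p, and the most variable ones; others were chosen after their values were seen. None of the 98 replicate pairs was identical (0 pairs). Replicate numbers were not taken to pair libraries, since only 62 of 144 same-numbered pairs had a correlation of deviations over 0.1.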

Additional observations from a re-analysis of the deposited data

Results flagged for a closer look

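Among 56 groups of values of named elements, 5 held 1 library that stood apart from the rest by Dixon's test at 95%, where chance flags about 1 in 20 groups. AT3TE06550 reached 14.1 CPM in wt col-0 replicate 2, above the other wild-type libraries numbered 1 to 4. AT5TE46165 reached 1.67 CPM in the same library. AT4TE34655 had its only ddm1 count in replicate 3, at 0.153 CPM. In wild-type replicates 5 to 8, AT3TE71740 reached 3.19 CPM in wt col-0 replicate 6 and AT4TE18385 reached 6.46 CPM in wt21 replicate 6.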

How the results depend on the processing

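With wild-type replicates 5 to 8 as control the counts were 34 in ddm1 (17.0% of all features), 24 in ago9 (10.6%), 20 in ago5ago9 (15.9%), 17 in ago5 (6.91%), 12 in ago4ago9 (8.67%), 10 in ago4 (11.6%) and 9 in ago4ago5ago9 (8.42%). With all 16 wild-type libraries they were 2 in ago4, 1 in ago5, 5 in ago9 and 4 in ago5ago9. With wt col-0 replicates 1 to 4 they were 0 in ago4, 1 in ago4ago9 and 0 in ago4ago5ago9. Fitting only the groups compared gave 5 in ago4, 1 in ago9 and 2 in ago4ago5ago9, and no filter gave 1 in ago9. The ago4 count was 0 with DESeq2 size factors, 0 with DESeq2 and 0 with the replicate block. With elements chosen on replicates 5 to 8 the ago4ago9 count was 1. The difference between replicate sets gave 11 within wt21 and 7 within wt col-0. Apart from the control of replicates 5 to 8, the share of all features called under each alternative is not given here. Those counts therefore describe the setting and are not a result about the elements. Leaving out 1 library moved the counts between 0 and 1 in ago4, 0 and 2 in ago9 (2 without replicate 4), 1 and 3 in ago4ago9, 0 and 3 in ago4ago5ago9 (3 without replicate 1), 24 and 36 in ddm1, 28 and 40 in ddm1 against the ago groups, and 28 and 47 between replicate sets. The difference in share of counts was -0.0263 percentage points in ago4 with elements chosen on replicates 5 to 8 and -0.0320 with wt col-0 as control, where ddm1 had 0.366, both with an exact permutation adjusted p of 0.2. With 4 against 4 libraries that test has 70 divisions, and ddm1 had the smallest p it can give (0.0286). The adjusted p of 0.2 therefore does not tell ago4 from ddm1. Leaving out 1 library moved this difference between -0.0320 and -0.0231 in ago4 and between -0.0268 and -0.0125 in ago5ago9. The causes were not tested. Of the alternatives for single elements, 805 left the call as it was, 56 lost it and 0 reversed. The number of elements was 233 at a threshold of 0.25 CPM and 133 at 1 CPM. Replicate numbers were not taken to pair the libraries. Same-numbered libraries of different groups had a median correlation of deviations of 0.06 (62 of 144 pairs over 0.1), against -0.02 for differently numbered ones (128 of 432 pairs). Same-numbered libraries were thus slightly more alike, and this difference was not tested. With the replicate block ddm1 had 31 calls and ddm1 against the ago groups 37, ago4ago9 had 2 and ago4ago5ago9 had 1. Depth limits the 45 elements below 1 CPM, for which 1 library's floor of 0.282 to 0.670 CPM is near their mean.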
